A study of Mus musculus with 12 samples.

Results

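The ATP-binding cassette (ABC) transporters of the mouse colonic mucosa are described here from a comparison of wild-type mice with mice carrying 1 altered copy of Sgo1. Members were the rows of the deposited count files whose gene symbol was Abc followed by a subfamily letter from a to g and a number, with the gene type protein_coding. This rule found 50 genes among 38087 with an Ensembl identifier, of which 35 had enough counts to be tested. There were 16 Abca, 10 Abcb, 10 Abcc, 4 Abcd, 1 Abce, 3 Abcf and 6 Abcg genes. The Abca and Abcg genes are called lipid transporters below (22 genes), the Abcb and Abcc genes drug transporters (20 genes), and the Abcd, Abce and Abcf genes other members (8 genes). These class names follow the subfamily and not the substrate of each protein.

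The series held 12 libraries of messenger RNA from colonic mucosa, 6 from wild-type mice and 6 from mice labelled Sgo1 -/+, written Sgo1-/+ here. Sgo1 encodes shugoshin 1, which protects the cohesion of sister chromatids at the centromere. All mice of both genotypes were given azoxymethane (4 mg/kg), a carcinogen of the colon, 2 times a week from 8 to 12 weeks of age, and tissue was taken at 9 months. No group without azoxymethane was analysed here, so every value below is from carcinogen-treated mucosa. The labels give 1 tissue sample per library without stating whether each came from its own mouse, and p-values then measure only the spread between these samples, which may be technical.

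An ABC protein binds and splits ATP in a pair of nucleotide-binding domains, and most couple this to moving a substrate across a membrane. Abca and Abcg proteins mainly move sterols and phospholipids, Abcb and Abcc proteins mainly export drugs, bile salts and conjugates, and Abcd proteins serve peroxisomes and lysosomes. Abce and Abcf proteins have no membrane-spanning part and act on ribosomes. In the gut epithelium, P-glycoprotein and the breast cancer resistance protein sit in the membrane facing the lumen and return absorbed compounds to it.

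Library totals ran from 5414437 to 9937114 counts. The targeted gene, listed as Sgol1, had a lowest, median and highest level of 1.42, 3.55 and 6.82 CPM (counts scaled by library size and by TMM factors) in wild type and 1.84, 2.37 and 2.81 CPM in Sgo1-/+, on 9.5 to 71.2 counts, with a log2 difference of -0.67 ± 0.31 (SE, n = 6 and 6; edgeR adjusted p = 0.517). Its ranges overlapped. The mucosal identity of the samples was checked with 8 surface colonocyte genes and 6 goblet cell genes, all of which were detected, with summed levels of 7804 to 15977 CPM and 9459 to 16483 CPM. In 3 libraries, wild-type replicates 3 and 5 and Sgo1-/+ replicate 3, rows resembling mitochondrial transcripts took 40.7% to 42.6% of the counts, against 11.6% to 24.6% in the other 9. Where leaving them out moved a member past an unadjusted p of 0.05, that value is given too. A shift of over 1.5 times is given only for members whose values in every library were summarised, and was not examined for the others. A suffix in the column names marked 4 libraries, 2 of each genotype, and the labels do not say what it stands for.

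Levels were compared between genes as CPM per kilobase of exon (RPKM), a scale on which genes of different length can be set side by side. The median level of the members tested was 0.98 RPKM for the 12 lipid transporters, 3.54 RPKM for the 16 drug transporters and 6.63 RPKM for the 7 other members, against 3.95 RPKM over all genes with a length. The drug transporters held the most abundant members. Abcb1a, which encodes P-glycoprotein, stood first at 189 ± 35.0 RPKM in wild type and 168 ± 37.8 RPKM in Sgo1-/+ (SD, n = 6 each). Abcc3, a basolateral exporter of bile salts and glucuronides, followed at 53.7 ± 12.5 and 49.0 ± 7.97 RPKM. Abcd3, which carries fatty acids into peroxisomes, had 34.1 ± 7.13 and 30.6 ± 5.43 RPKM. Its range overlapped that of Abcb11, the bile salt export pump, whose level varied far more between libraries, at 36.7 ± 22.5 and 25.1 ± 23.6 RPKM. Of the lipid transporters, Abcg2 was highest at 14.7 ± 3.41 and 12.6 ± 2.66 RPKM, a level that did not stand clear of the spread of Abcf1 at 19.4 ± 3.09 and 18.1 ± 2.42 RPKM or of Abcb6 at 12.8 ± 2.35 and 11.6 ± 2.37 RPKM. These 7 genes were the members tested with a mean above 10 RPKM.

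**Figure D1:**
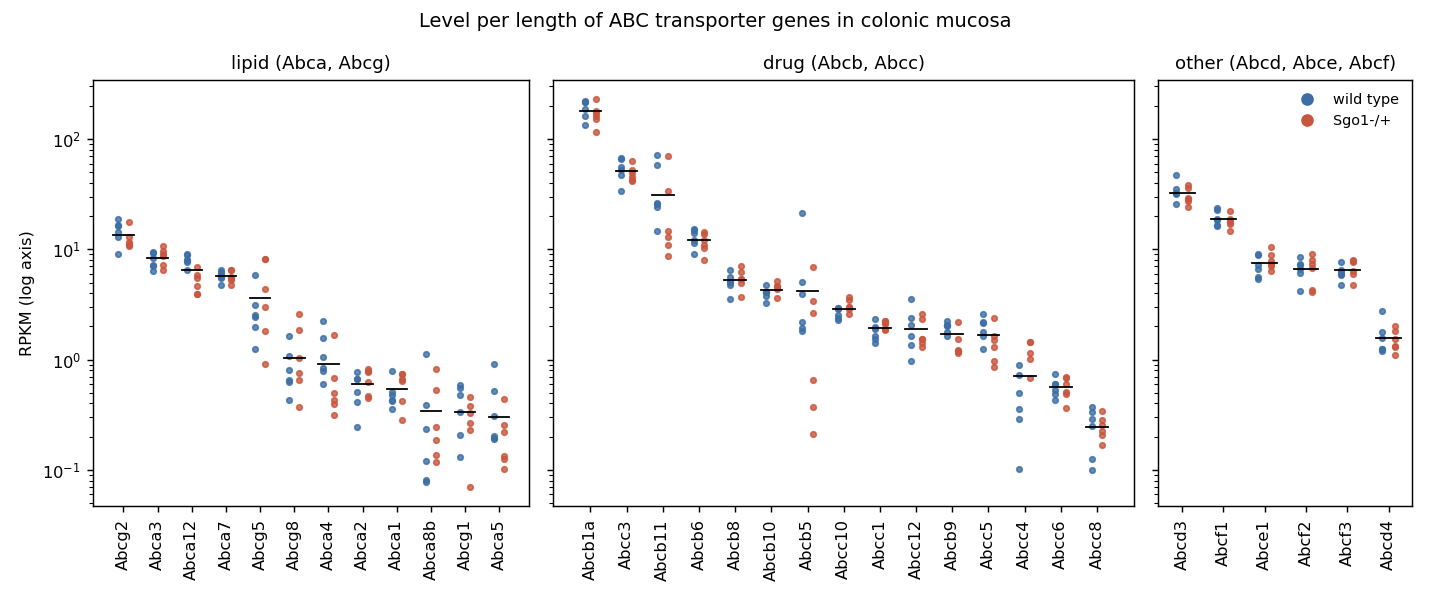
Level of the ABC transporters reported in RPKM (log axis) in 12 libraries, grouped into lipid, drug and other members; each point is a library, coloured by genotype, and the black line is the mean. Abcb1a stands above the rest in every library, and 1 library with no count, Sgo1-/+ replicate 3 for Abcc4, cannot be drawn on the log axis.

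Summed over all its members, the drug class held 1567, 1829 and 1974 CPM (lowest, median and highest of 6) in wild type and 1413, 1533 and 1962 CPM in Sgo1-/+. Abcb1a alone made up 47.4% to 64.1% of that sum in wild-type libraries and 42.2% to 64.3% in Sgo1-/+ libraries. The lipid class held 346, 407 and 449 CPM in wild type and 317, 347 and 368 CPM in Sgo1-/+. For the lipid class only wild-type replicate 5, a library rich in mitochondrial-like rows, lay within the Sgo1-/+ range at 346 CPM, and the other 5 wild-type libraries had 383 to 449 CPM. This sum includes Abca12, a gene singled out by its p in earlier work on these files. Abca12 averaged 118.6 CPM over wild-type libraries against 75.6 CPM over Sgo1-/+ libraries. Of the 12 lipid transporters tested, 5 had a higher and 7 a lower estimate. The lipid sum without Abca12 was not computed, so its gap does not show a lower level across the class. The ranges of the genotypes overlapped for both classes, as they did for the other members, at 362, 417 and 520 CPM against 362, 386 and 465 CPM.

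Between genotypes no ABC transporter passed the test. At an adjusted p of 0.05, edgeR's quasi-likelihood test called 0 of 35 members, and it called 0% of the 13889 genes tested. The smallest adjusted p among members was 0.443, and 0.270 among all genes. At an unadjusted p of 0.05, 2 members passed, Abca12 and Abcb9, both lower in Sgo1-/+. That is 5.71% of the members tested, beside 9.65% of all genes in either direction and 5.08% of all genes in the lower direction. Against the lower direction alone, 2 of 35 is close to the share of all genes. limma-voom also called 0 members and 0% of genes. DESeq2 called 1 member, Abca12, with an adjusted p of 0.0378, among 0.217% of genes called in either direction and 0.0939% called lower. In 0 of 35 members did the 6 libraries of one genotype lie wholly above those of the other, and 0.338% of all genes had such groups.

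The 12 lipid transporters tested had 5 members with a higher and 7 with a lower estimate in Sgo1-/+, with a median log2 difference of -0.06 and a range from -0.90 to 0.62. For the 16 drug transporters the counts were 7 and 9, the median was -0.08 and the range ran from -1.37 to 1.00. The 7 other members had 3 and 4, a median of -0.01 and a range from -0.16 to 0.21. Without the 3 libraries rich in mitochondrial-like rows the medians were -0.20 for lipid, -0.09 for drug and 0.08 for other members. Over all genes tested, 6806 had a higher and 7083 a lower estimate, with a median of -0.01. The classes differed more in how far libraries of 1 genotype scattered: the median SD of log2 CPM within genotype was 0.62 for lipid transporters, 0.30 for drug transporters, 0.27 for other members and 0.35 for all genes. The lipid transporters are also the class with the lowest median level.

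The number of members at an unadjusted p of 0.05 depended on single libraries. It was 7 without Sgo1-/+ replicate 3, when 18.7% of all genes passed, 4 without wild-type replicate 2 (13.9% of genes) and 4 without wild-type replicate 5 (8.17% of genes). Without the 3 libraries rich in mitochondrial-like rows it was 6, when 11.9% of genes passed: Abca12, Abca4, Abcb9 and Abcg2 had lower values in Sgo1-/+ and Abcc4 and Abcc1 higher ones. No member was called by edgeR after adjustment in any of these fits.

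**Figure D2:**
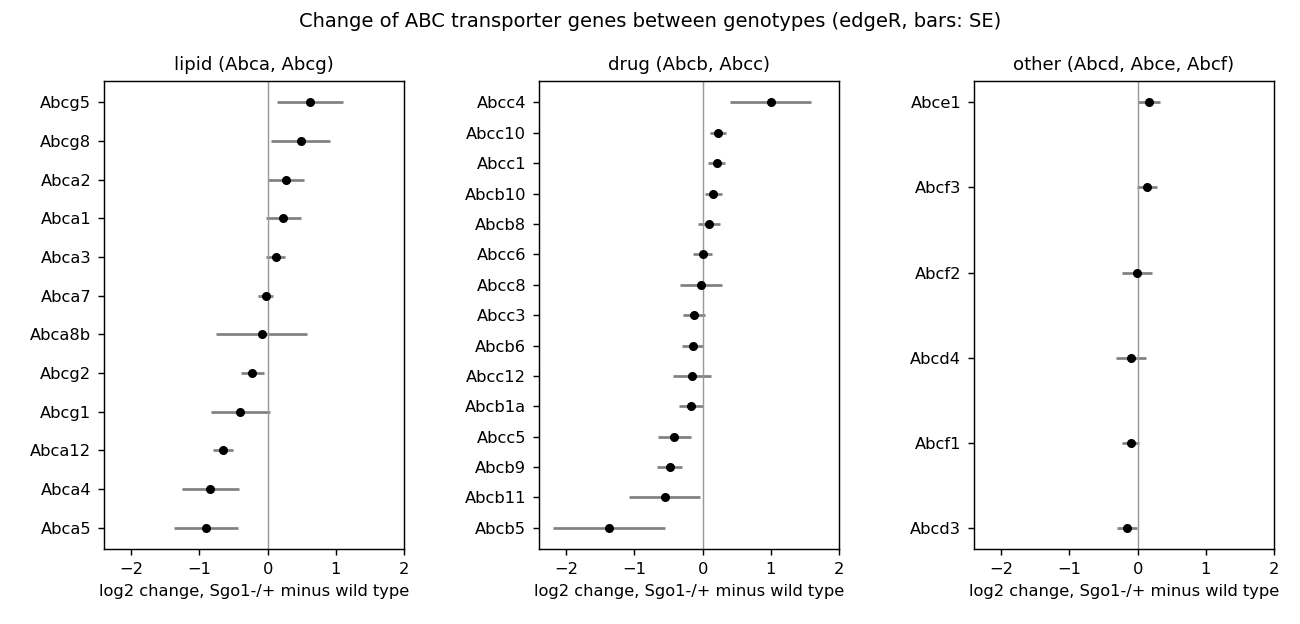
Log2 difference of Sgo1-/+ minus wild type for the ABC transporters reported, by class, with bars of 1 SE from edgeR (6 libraries each). Estimates lie on both sides of 0 in every class, and no member passed at an adjusted p of 0.05.

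Abca12 (ENSMUSG00000050296, mm10 chr1:71243090-71414910, minus strand) had the smallest p among members, with rank 12 among all genes. The protein loads glucosylceramides into the lamellar granules of skin keratinocytes, and its loss causes harlequin ichthyosis in humans. Its level was 95.2, 118 and 135 CPM (lowest, median and highest of 6) in wild type and 57.7, 74.9 and 102 CPM in Sgo1-/+, from 357 to 1187 counts per library. In 5 of 6 Sgo1-/+ libraries it lay below every wild-type library. The overlap came from Sgo1-/+ replicate 3 at 102 CPM and wild-type replicate 5 at 95.2 CPM, both among the libraries rich in mitochondrial-like rows. Per length the means were 8.01 ± 0.974 and 5.11 ± 1.19 RPKM (SD, n = 6 each), and the log2 difference was -0.65 ± 0.15 (SE). By edgeR its p was 6.06e-04 before and 0.443 after adjustment. An exact two-sided permutation test of mean log2 CPM over all 924 splits gave a difference of -0.67 with p = 0.00433. An earlier analysis of the same files had already singled out this gene by its p, so this value is a description of it and no independent support.

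The estimate for Abca12 lay below 0 in all 23 other settings tried. Without the 3 libraries rich in mitochondrial-like rows it was -0.76 ± 0.13 (edgeR adjusted p = 0.264). It was -0.57 among the 8 libraries without the suffix and -0.80 among the 4 with it. Markers of squamous keratinocytes, the cell type in which the protein is best known, were near 0: the 6 markers summed to 1.44 to 4.92 CPM in wild type and 1.37 to 2.86 CPM in Sgo1-/+, none of them was at 0 in all libraries, and Krt5 had a mean of 0.333 counts per library. The 8 surface colonocyte markers all had lower estimates in Sgo1-/+, with a median log2 difference of -0.32, 2 at an unadjusted p of 0.05 and 0 after adjustment by edgeR, and sums of 8573 to 15977 CPM in wild type and 7804 to 12987 CPM in Sgo1-/+. The 5 proliferating crypt markers all had higher estimates, with a median of 0.54, 4 at an unadjusted p of 0.05 and 0 after adjustment by edgeR, and sums of 98.9 to 227 CPM and 152 to 241 CPM. Over all genes tested, 4.56% were higher and 5.08% lower at an unadjusted p of 0.05 by edgeR. The part of these markers in the difference of Abca12 was not tested, and in bulk tissue fewer cells of a type and less RNA per cell cannot be told apart.

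The promoter of Abca12 is printed because this member had the smallest p. The window runs from 250 bases before to 50 after the RefSeq start in GRCm38.p6 (the mm10 assembly), at chr1:71414861-71415160 on the minus strand, read 5′ to 3′. Capitals would mark any of 5 motifs on either strand, and none occurs in it: TATAAA, the box near many start sites, the promoter box CCAAT, the Sp1 family letters GGGCGG, the nuclear receptor letters AGGTCA and the caudal factor letters TTTATG.
Abca12: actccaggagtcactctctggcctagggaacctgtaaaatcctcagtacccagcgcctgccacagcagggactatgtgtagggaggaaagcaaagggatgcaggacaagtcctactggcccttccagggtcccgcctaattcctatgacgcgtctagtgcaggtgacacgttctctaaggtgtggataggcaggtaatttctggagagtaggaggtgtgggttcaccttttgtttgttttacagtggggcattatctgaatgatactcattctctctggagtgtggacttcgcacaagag
Over 32544 RefSeq promoters of this length the letters TATAAA occurred in 13.6%, CCAAT in 37.4%, GGGCGG in 35.9%, AGGTCA in 16.2% and TTTATG in 11.9%.

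The other lipid transporters with the smallest p were Abca4, at 41 to 100 counts per library, and Abca5, at 12 to 70.4 counts per library. Abca4, the retinoid flippase of photoreceptors, had 7.30, 11.4 and 26.7 CPM in wild type and 3.76, 5.60 and 20.0 CPM in Sgo1-/+. Its highest libraries were wild-type replicates 5 and 3 and Sgo1-/+ replicate 3, so the genotypes overlapped through the libraries rich in mitochondrial-like rows. The log2 difference was -0.84 ± 0.42 (SE; edgeR adjusted p = 0.528). It ran from -1.31 without Sgo1-/+ replicate 3 to -0.57 without wild-type replicate 5. Without the 3 libraries rich in mitochondrial-like rows it was -0.80 ± 0.24 (edgeR unadjusted p = 0.00703, adjusted p = 0.307). Abca5, a protein of late endosomes and lysosomes, had 2.16, 2.91 and 10.5 CPM against 1.16, 2.02 and 5.01 CPM. Its difference of -0.90 ± 0.47 (edgeR adjusted p = 0.545) was -0.41 without wild-type replicate 1, the library at 10.5 CPM.

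Abcg2 and Abca3 were the lipid-class members with the highest mean level per length over both genotypes, and in wild type alone Abca3 (7.96 RPKM) and Abca12 (8.01 RPKM) were within 1 SD of each other. Abcg2 encodes the breast cancer resistance protein, which exports drugs and urate and stands in this class only by its subfamily. Its level was 74.0, 124 and 154 CPM in wild type and 87.8, 93.6 and 145 CPM in Sgo1-/+, with a log2 difference of -0.22 ± 0.17 (edgeR adjusted p = 0.687). It was -0.34 without Sgo1-/+ replicate 1, -0.13 without wild-type replicate 4, -0.35 (edgeR adjusted p = 0.409) without the 3 libraries rich in mitochondrial-like rows and -0.53 (edgeR adjusted p = 0.230) within the 4 libraries with the suffix. The Sgo1-/+ libraries lay between 87.8 and 104.8 CPM except replicate 1, which at 145 CPM was near the top of the wild-type range. Abca3, which fills the lamellar bodies of the lung with surfactant phospholipids, had 59.3, 72.5 and 89.4 CPM against 61.0, 83.2 and 101 CPM, a difference of 0.12 ± 0.14 (edgeR adjusted p = 0.789) that ran from 0.06 without Sgo1-/+ replicate 5 to 0.20 without wild-type replicate 2. Its ranges overlapped over most of their length, and 914 of its 9374 exon bases are shared with D330041H03Rik, at 8.44 to 19.6 CPM. That gene lies on the opposite strand. Whether reads were counted by strand is unknown here, so reads from these bases could belong to either gene.

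Abcg5 and Abcg8 encode the sterolins, which act only as a pair and pump plant sterols and cholesterol back into the gut lumen and into bile. Both genes were chosen after their values were seen. Abcg5 had 3.36, 6.75 and 15.9 CPM in wild type and 2.49, 10.1 and 22.1 CPM in Sgo1-/+, and Abcg8 had 1.60, 2.73 and 6.09 CPM against 1.39, 3.36 and 9.70 CPM. Both genes had their 3 highest values in the same libraries, Sgo1-/+ replicates 2 and 4 and wild-type replicate 6, at 22.1, 22.0 and 15.9 CPM for Abcg5 and 6.97, 9.70 and 6.09 CPM for Abcg8. The spread within each genotype was as wide as the gap between them: the log2 differences were 0.62 ± 0.49 and 0.49 ± 0.43 (edgeR adjusted p = 0.698 and 0.725). Without Sgo1-/+ replicate 4 they were 0.36 and 0.13, and without wild-type replicate 6 they were 0.96 and 0.76. Among the 8 libraries without the suffix they were 1.25 and 0.93 (edgeR adjusted p = 0.985 for both). Among the 4 libraries with the suffix they had the other sign, -0.66 and -0.44. Summed distal colon markers (Hoxa13, Hoxb13, Hoxd13) were highest in Sgo1-/+ replicates 2, 5 and 4, at 279, 208 and 206 CPM against 39.6 to 116 CPM in the other 9. These are only in part the libraries highest in the sterolins. Sgo1-/+ replicate 5 had 12.0 CPM of Abcg5 and 3.86 CPM of Abcg8, and wild-type replicate 6 had 103 CPM of the markers. The part of the markers in the sterolin levels was not tested.

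The sterolin genes are printed because they lie head to head on chromosome 17 and their upstream windows share bases. The windows are chr17:84682962-84683261 (minus strand) for Abcg5 and chr17:84682871-84683170 (plus strand) for the downstream of 2 RefSeq starts of Abcg8, each from 250 bases before to 50 after the start in GRCm38.p6. They have 209 bases in common, read on opposite strands. Capitals mark TATAAA and also CCAAT on either strand, so that a match on the other strand reads as TTTATA or, for the second motif, as ATTGG.
Abcg5: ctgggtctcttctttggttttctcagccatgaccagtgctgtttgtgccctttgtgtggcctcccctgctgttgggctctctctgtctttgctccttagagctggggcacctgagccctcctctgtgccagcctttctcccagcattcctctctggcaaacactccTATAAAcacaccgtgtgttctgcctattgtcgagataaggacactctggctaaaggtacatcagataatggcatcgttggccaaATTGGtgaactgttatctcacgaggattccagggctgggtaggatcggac
Abcg8: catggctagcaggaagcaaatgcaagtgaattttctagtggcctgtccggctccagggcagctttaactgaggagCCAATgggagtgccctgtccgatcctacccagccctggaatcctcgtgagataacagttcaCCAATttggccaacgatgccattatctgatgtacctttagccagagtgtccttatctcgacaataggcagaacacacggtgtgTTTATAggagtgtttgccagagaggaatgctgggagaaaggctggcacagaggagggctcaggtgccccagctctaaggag
The Abcg5 window holds 1 TATAAA and 1 CCAAT, and the Abcg8 window 1 TATAAA and 2 CCAAT, in part the same bases seen from both sides. The Abcg8 start used here lies 6819 bases inside the gene start that the deposited files list, and 82 exon bases of the genes overlap on opposite strands, of 2712 for Abcg5 and 3749 for Abcg8. Whether reads were counted by strand is unknown here, so reads from the 82 bases could belong to either gene.

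The other 5 lipid transporters tested were all at low levels apart from Abca7. Abca7, a phospholipid transporter linked to phagocytosis, had 32.2 to 43.9 CPM over the 12 libraries and a log2 difference of -0.03 ± 0.11. Abca1 and Abcg1, which hand cholesterol to apolipoprotein A-I and to HDL, had 2.96 to 8.14 CPM with a difference of 0.23 ± 0.26 and 0.510 to 4.32 CPM with a difference of -0.40 ± 0.44. Abca2, known from lysosomes and myelin, had 2.06 to 6.89 CPM and 0.26 ± 0.26. Abca8b had 0.577 to 8.35 CPM and -0.09 ± 0.66. Their ranges overlapped between genotypes, and the smallest edgeR adjusted p among these 5 was 0.754.

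**Figure D3:**
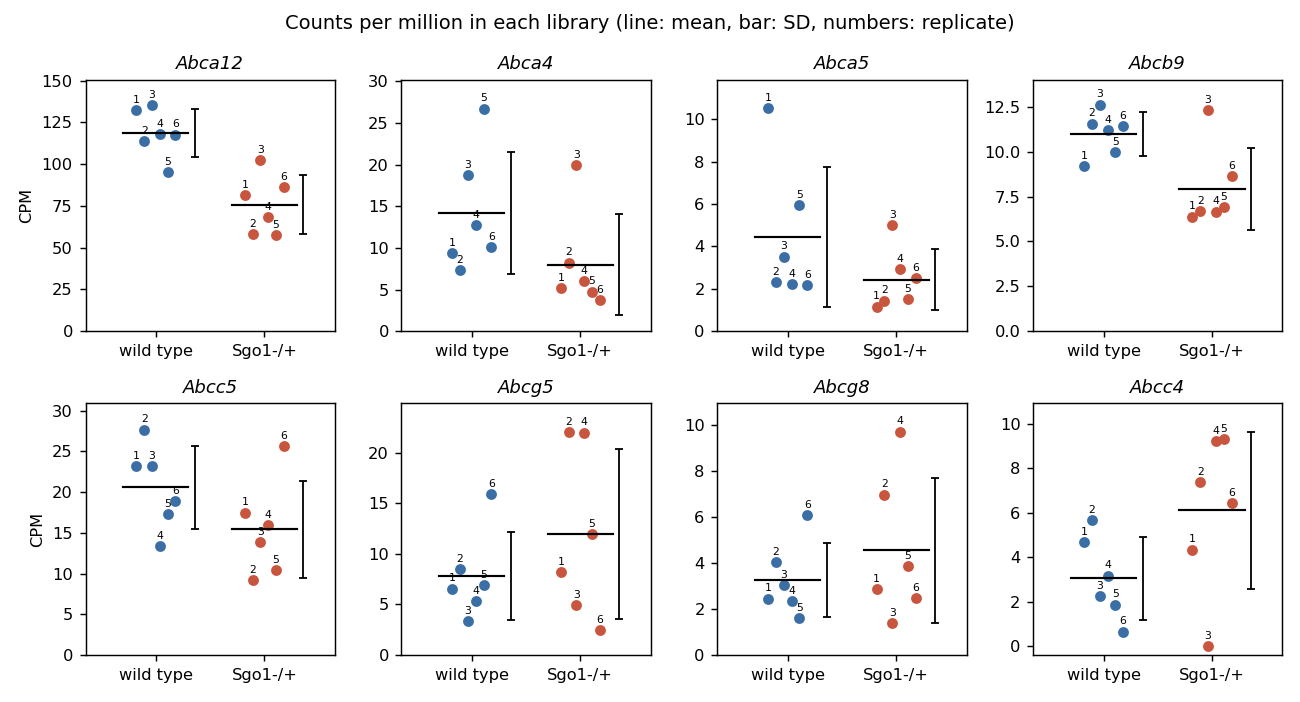
Level in CPM in each library for 8 ABC transporters, with the replicate number beside each point, the line at the mean and a bar of 1 SD (6 libraries per genotype). For Abca12 and Abcb9, 5 of 6 Sgo1-/+ libraries lie below all wild-type libraries and replicate 3 lies among them, whereas Abcg5 and Abcg8 share their highest libraries across genotypes.

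Among the drug transporters, Abcb1a and Abcc3 carried the highest levels, and their genotype ranges overlapped broadly. Abcb1a (ENSMUSG00000040584, mm10 chr5:8660077-8748575, plus strand) exports a wide range of drugs into the lumen and had 742, 1098 and 1204 CPM in wild type against 633, 911 and 1262 CPM in Sgo1-/+. Its lowest library of each genotype was one rich in mitochondrial-like rows, wild-type replicate 5 and Sgo1-/+ replicate 3. The log2 difference was -0.17 ± 0.17 (SE; edgeR adjusted p = 0.756), and it ran from -0.26 without Sgo1-/+ replicate 6 to -0.08 without Sgo1-/+ replicate 3. Rodents have a second P-glycoprotein gene, Abcb1b, which had only 84.7 counts over all libraries and was not tested. Of the distinct 50-base words in the Abcb1a transcripts, 889 (16.3%) also occur in Abcb1b, so some of the few Abcb1b reads are uncertain. Abcc3 had 191, 309 and 384 CPM in wild type and 237, 270 and 359 CPM in Sgo1-/+, with a difference of -0.13 ± 0.16 (edgeR adjusted p = 0.804). That difference ran from -0.24 without wild-type replicate 5 to -0.05 without wild-type replicate 4, and was -0.24 without the 3 libraries rich in mitochondrial-like rows.

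The 3 drug transporters with the smallest p were Abcb9, Abcc10 and Abcc5. Abcb9, a lysosomal peptide transporter related to the antigen peptide pump TAP, had 9.19, 11.3 and 12.6 CPM in wild type and 6.38, 6.79 and 12.3 CPM in Sgo1-/+. As for Abca12, 5 of 6 Sgo1-/+ libraries lay below every wild-type library, and Sgo1-/+ replicate 3 lay within the wild-type range. The log2 difference was -0.48 ± 0.18 (SE; edgeR unadjusted p = 0.0173, adjusted p = 0.486), and -0.61 ± 0.16 (edgeR adjusted p = 0.293) without the 3 libraries rich in mitochondrial-like rows. Abcc10, a broad exporter of the multidrug resistance protein group, had 15.8, 18.6 and 20.1 CPM against 17.7, 20.7 and 25.1 CPM, a difference of 0.22 ± 0.12 (edgeR adjusted p = 0.560). Abcc5, an exporter of cyclic nucleotides and glutamate conjugates, had 13.3, 21.0 and 27.7 CPM against 9.19, 14.9 and 25.6 CPM, a difference of -0.42 ± 0.24 (edgeR adjusted p = 0.596). The ranges of both overlapped, and the highest Sgo1-/+ library of Abcc5, replicate 6, was close to the highest wild-type library.

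Abcb11, Abcb5, Abcc4 and Abcc12 were chosen for their spread between libraries after their values were seen. Abcb11 (ENSMUSG00000027048, mm10 chr2:69238282-69342616, minus strand) encodes the pump that moves bile salts out of liver cells. Its level was 75.4, 134 and 368 CPM in wild type and 44.4, 70.8 and 358 CPM in Sgo1-/+. The 3 highest libraries were those rich in mitochondrial-like rows, wild-type replicates 3 and 5 at 368 and 298 CPM and Sgo1-/+ replicate 3 at 358 CPM, and the other 9 had a median of 75.4 CPM and at most 173 CPM. The genotypes overlapped, with a log2 difference of -0.55 ± 0.52 (edgeR adjusted p = 0.741) that ran from -1.18 without Sgo1-/+ replicate 3 to -0.24 without wild-type replicate 3. An antisense gene, Gm13613, shares 136 of the 5146 exon bases of Abcb11 and had 2.39 to 6.78 CPM.

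The promoter of Abcb11 is printed because this member had the widest range in absolute level among libraries outside Abcb1a. The window is chr2:69342567-69342866 in GRCm38.p6 on the minus strand, with capitals at 1 match of AGGTCA, the core letters bound by many nuclear receptors, seen on the other strand as TGACCT.
Abcb11: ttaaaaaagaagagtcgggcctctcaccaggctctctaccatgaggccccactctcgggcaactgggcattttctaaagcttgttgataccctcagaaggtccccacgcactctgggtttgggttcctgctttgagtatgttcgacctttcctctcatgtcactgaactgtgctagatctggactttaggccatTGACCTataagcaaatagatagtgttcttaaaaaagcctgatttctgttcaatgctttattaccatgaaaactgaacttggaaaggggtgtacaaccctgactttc
AGGTCA is found in 16.2% of all promoters of this length, and the match says nothing on its own about binding. Nr1h4, the bile acid receptor FXR and a known activator of Abcb11 in liver, had 65.8 to 137 CPM in wild type and 48.8 to 77.6 CPM in Sgo1-/+, a log2 difference of -0.63 ± 0.16 (edgeR adjusted p = 0.443). The part of Nr1h4 in the level of Abcb11 was not tested.

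Abcb5, known from melanocytes and limbal stem cells, had 7.95, 13.4 and 93.0 CPM in wild type and 0.929, 7.19 and 30.3 CPM in Sgo1-/+. Wild-type replicate 5 stood apart at 93.0 CPM, and the next wild-type library had 22.4 CPM. The log2 difference of -1.37 ± 0.82 (edgeR adjusted p = 0.605) was -0.37 without that library and -0.86 without the 3 libraries rich in mitochondrial-like rows. Abcc4, an exporter of cyclic nucleotides and prostaglandins, had 0.649, 2.72 and 5.65 CPM in wild type and 0, 6.90 and 9.30 CPM in Sgo1-/+. In Sgo1-/+ replicates 2, 4 and 5 it lay at 7.37, 9.21 and 9.30 CPM, above every wild-type library, while replicate 3 had no count, which allows up to 0.693 CPM at 3 counts (counting error only). Its log2 difference was 1.00 ± 0.60 (edgeR adjusted p = 0.606), and 1.03 ± 0.41 (edgeR adjusted p = 0.370) without the 3 libraries rich in mitochondrial-like rows. The replicates with the highest Abcc4 were also those with the highest distal colon markers, whose part was not tested. Abcc12 had 6.51, 12.3 and 23.7 CPM against 8.72, 10.2 and 17.1 CPM, and its difference of -0.15 ± 0.28 (edgeR adjusted p = 0.876) turned to 0.09 when wild-type replicate 5 was left out and to 0.14 without the 3 libraries rich in mitochondrial-like rows.

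The remaining drug transporters did not pass the test either. Abcc1, the first multidrug resistance protein, had 21.5 to 35.2 CPM over the 12 libraries and a log2 difference of 0.21 ± 0.13 (edgeR adjusted p = 0.609), and 0.36 ± 0.12 (edgeR adjusted p = 0.317) without the 3 libraries rich in mitochondrial-like rows. The mitochondrial and heme-related members of Abcb were close to even. Abcb8 had 16.8 to 33.1 CPM and 0.10 ± 0.16, and Abcb10, also of the inner mitochondrial membrane, had 14.0 to 22.3 CPM and 0.16 ± 0.12. Abcb6, a porphyrin transporter, had 42.7 to 81.4 CPM and -0.14 ± 0.16. Abcc6, whose loss causes ectopic mineralisation, and Abcc8, the sulfonylurea receptor of beta cells, were low, at 2.08 to 4.27 CPM with a difference of 0.00 ± 0.14 and 0.800 to 2.98 CPM with a difference of -0.03 ± 0.31. The smallest edgeR adjusted p among the 5 named after Abcc1 was 0.691.

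None of the other members passed the test. Abce1, which splits ribosomes after termination, had 32.3, 41.4 and 54.0 CPM against 38.6, 45.3 and 63.6 CPM, a difference of 0.17 ± 0.16 (edgeR adjusted p = 0.740). It was 0.08 without Sgo1-/+ replicate 1, 0.27 without wild-type replicate 2 and 0.08 without the 3 libraries rich in mitochondrial-like rows. Abcd3 had 169, 213 and 311 CPM against 160, 191 and 255 CPM, a difference of -0.16 ± 0.15 (edgeR adjusted p = 0.742). Its highest library was wild-type replicate 2, and without it the difference was -0.02. Abcf1, a factor in translation initiation, had 71.4, 82.4 and 105 CPM against 64.8, 78.9 and 97.6 CPM, a difference of -0.10 ± 0.12 (edgeR adjusted p = 0.799). It ran from -0.16 without Sgo1-/+ replicate 3 to -0.03 without wild-type replicate 3, and was -0.0096 without the 3 libraries rich in mitochondrial-like rows. Abcf2 at 10.5 to 23.5 CPM, Abcf3 at 16.9 to 28.4 CPM and Abcd4, a lysosomal protein of cobalamin release, at 8.86 to 21.9 CPM had differences of -0.01 ± 0.22, 0.14 ± 0.15 and -0.10 ± 0.22.

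The libraries separated some members along another line than genotype. Their mitochondrial-like share put 3 libraries far above the other 9, and 4 of the 35 members tested had all 3 of these above all 9, beside 10.2% of all genes tested. Abcb11 had 298 to 368 CPM in the 3 and 44.4 to 173 CPM in the 9, Abca4 had 18.7 to 26.7 against 3.76 to 12.8 CPM, Abcc12 had 15.8 to 23.7 against 6.51 to 15.5 CPM, and Abcf1 had 97.6 to 105 against 64.8 to 83.1 CPM. In 3 members all 3 lay below all 9, beside 8.9% of all genes. Among them were Abce1 at 32.3 to 38.6 against 39.8 to 63.6 CPM and Abcf3 at 16.9 to 20.9 against 21.1 to 28.4 CPM. Both shares are near the background, so the family did not stand out from other genes in this respect. The 3 libraries were chosen by their mitochondrial-like share and belong to both genotypes. They also had the highest summed macrophage markers, 93.4 to 125 CPM against 25.8 to 62.3 CPM in the others, and the part of either in the members' levels was not tested.

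**Figure D4:**
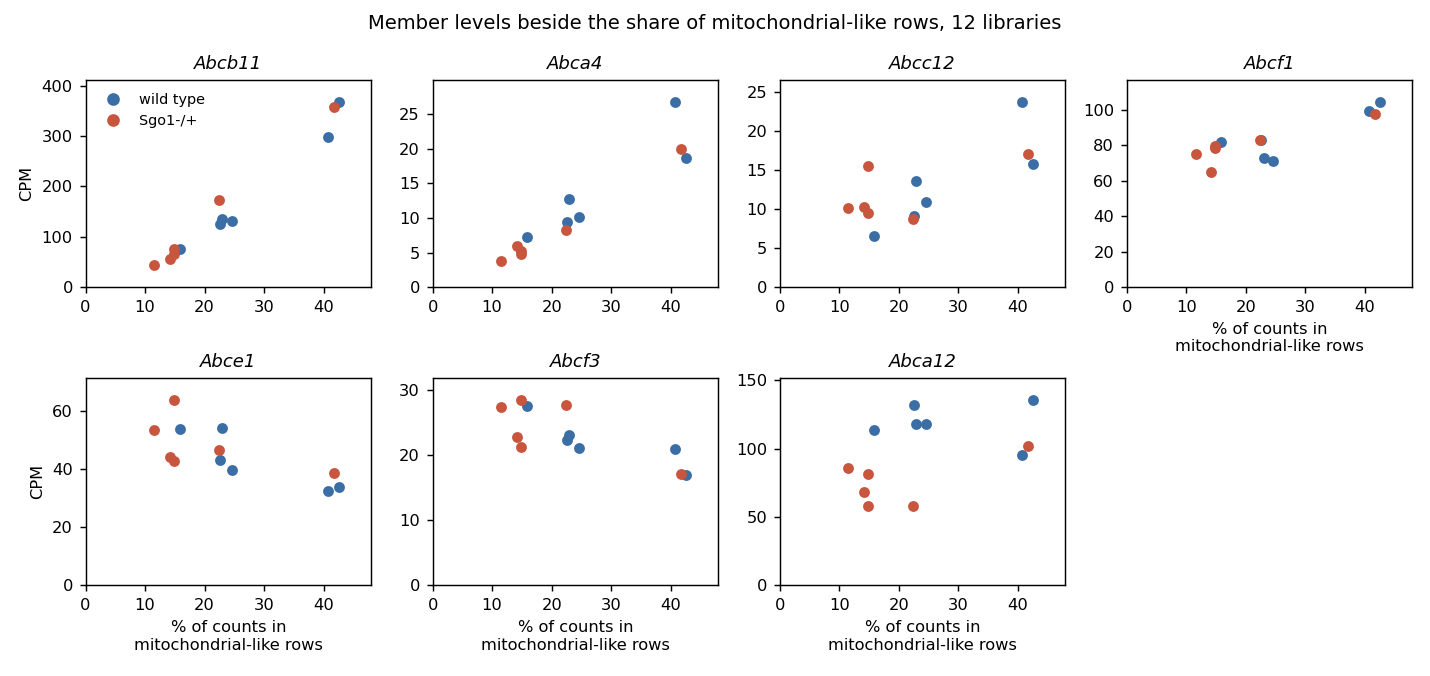
Level in CPM of 7 ABC transporters against the percent of counts in mitochondrial-like rows, 1 point per library, coloured by genotype. The 3 libraries at 40.7% to 42.6% lie above the other 9 for Abcb11, Abca4, Abcc12 and Abcf1 and below them for Abce1 and Abcf3, and Abca12 shows both genotypes overlapping there.

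The 15 members not tested had 7.6 to 127.8 counts summed over 12 libraries. In the lipid class these were Abca6, Abca8a and Abca9 of a cluster on chromosome 11, with 55.8, 30.0 and 74.6 counts, Abca13 with 127.8, and Abca14, Abca15, Abca16 and Abca17 with 40.4, 14.5, 17.0 and 7.6. Abcg3 and Abcg4 had 22.1 and 37.3 counts. The drug-class genes were Abcb1b, Abcb4 (the phosphatidylcholine pump of bile, 58.0 counts), Abcc2 (the apical conjugate exporter, 93.4 counts) and Abcc9 (25.5 counts), and Abcd2 had 93.0. Abca6 had 24.2 of its counts in 1 library, wild-type replicate 5. No test between genotypes was made for these genes.

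Other genes of the pathways that ABC transporters serve were taken from lists, and edgeR called 0 of the genes in each list after adjustment, with counts at an unadjusted p of 0.05 given below. Of 3 ABC genes under other symbols, Cftr, Tap1 and Tap2, all had lower estimates, none at an unadjusted p of 0.05, and Cftr, the chloride channel, was even at 98.4 ± 18.1 and 97.6 ± 8.84 CPM (SD, n = 6 each). Of 18 nuclear receptors and regulators of ABC genes, 6 had higher and 12 lower estimates (median log2 difference -0.11), with 0 higher and 3 lower at an unadjusted p of 0.05. Besides Nr1h4, the vitamin D receptor Vdr was among the latter, at 418 against 351 CPM and -0.25 ± 0.10 (edgeR adjusted p = 0.4996). Of 15 tested genes of sterol and bile acid handling, 6 had higher and 9 lower estimates (median -0.06), with 1 each at an unadjusted p of 0.05: Soat1, which esterifies cholesterol, at 30.6 against 42.9 CPM and 0.49 ± 0.21, and Npc1, which releases it from lysosomes, at 50.7 against 43.7 CPM and -0.21 ± 0.09 (edgeR adjusted p = 0.4996 and 0.504). Of 5 tested targets of the sterol receptor LXR outside the family, 2 were higher and 3 lower (median -0.06), and Srebf1, a regulator of fatty acid synthesis, was at 23.8 against 34.1 CPM with 0.52 ± 0.21 (edgeR adjusted p = 0.492).

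The carriers that bring drugs and organic ions into cells had the lowest median among these lists, -0.40 over 16 genes, with 6 higher and 10 lower estimates and 1 higher and 4 lower at an unadjusted p of 0.05. The prostaglandin carrier Slco2a1 had 104.9 to 175 CPM in wild type and 84.9 to 121 CPM in Sgo1-/+, with -0.48 ± 0.14, and Slco2b1 had 10.3 to 23.9 against 8.33 to 14.3 CPM, with -0.64 ± 0.19 (edgeR adjusted p = 0.443 for both). Of 10 genes of peroxisomal import and beta-oxidation, the setting of Abcd3, 1 had a higher and 9 a lower estimate (median -0.17), with 2 lower at an unadjusted p of 0.05. Among them was Pex11a, which helps peroxisomes divide, at 26.3 against 21.0 CPM and -0.32 ± 0.13 (edgeR adjusted p = 0.492).

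The 12 genes of heme and iron-sulfur synthesis had a median of -0.01, with 5 higher and 7 lower estimates and none at an unadjusted p of 0.05. The 8 genes of translation termination and ribosome recycling, where Abce1 acts, had a median of 0.12, with 5 higher and 3 lower and 1 higher at an unadjusted p of 0.05, the ribosome rescue factor Pelo at 5.12 against 7.45 CPM and 0.54 ± 0.21 (edgeR adjusted p = 0.491). Of 14 genes of skin barrier lipids and the cornified envelope, the skin setting of Abca12, 8 could be tested, with 1 higher and 7 lower estimates (median -0.07) and 1 lower at an unadjusted p of 0.05. That gene was Flg, the skin protein filaggrin, at 0.288 to 11.1 CPM in wild type and 0.0990 to 2.31 CPM in Sgo1-/+ (-2.01 ± 0.71, edgeR adjusted p = 0.486). Ugcg, the enzyme that makes the glucosylceramide carried by Abca12, had 125 against 115 CPM and -0.12 ± 0.10 (edgeR adjusted p = 0.710). Over all genes tested the median was -0.01 and 4.56% were higher and 5.08% lower at an unadjusted p of 0.05.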

How the data were processed

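Messenger RNA of colonic mucosa was prepared with TruSeq and sequenced on an Illumina MiSeq, per the labels' protocols. The submitters' processing notes name build mm10 and DESeq. For the aligner, the counter and its strand setting, the sources used here give nothing. The deposited raw column was taken to hold expected counts, because 69.6% of its values above 0 are not whole numbers (tolerance 0). The log2 column deposited by the authors was not used.

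Counts were rounded. The 505 of 38592 rows without an Ensembl identifier, which hold 1.79% to 5.40% of the counts per library, were dropped. Replicates were not duplicates (chi-square per degree of freedom of at least 15.7). Genes were tested in edgeR 4.0.16 (R 4.3.3) with TMM factors, glmQLFit and glmQLFTest after filterByExpr (minimum count 10, minimum total 15), which kept 13889 genes, and p-values were adjusted by Benjamini-Hochberg over all of them at a threshold of 0.05. The SE is the absolute log2 difference divided by the square root of F. Values of log2 CPM used a prior count of 2, and the edgeR fits kept their default. CPM used TMM library sizes, and RPKM divided CPM by the union of annotated exons. DESeq2 1.42.0 and limma 3.58.1 (voom) served as alternatives, with 39 genes left without an adjusted p by DESeq2. The fit was tested on simulated data with 100 genes changed by a log2 of 1 and 100 by a log2 of 2. It recovered 53% of the former and 95% of the latter, and 11 of its 159 calls were unchanged genes. Differences of a log2 of 1 or less can therefore be missed, and some larger ones too. The simulated scatter followed the trend of all genes with level and not each gene's own scatter. Changed genes averaged 10 counts or more. Recovery of members with fewer counts or wider scatter than the trend was not tested. Mitochondrial-like rows were 11 genes whose transcripts match mitochondrial ones.

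Members and gene lists were chosen with earlier results of these data known. Values in every library were summarised for Abca12 and the members with the smallest p in each class (3, 3 and 2). The same was done for the 2 members with the highest level per length in each class. Abcb11, Abcb5, Abcc4, Abcc12, Abcg5 and Abcg8 were added after their values were seen. Some members and list genes are counted but not reported here by name. Other lists could give 2 named genes each, ranked by p among genes averaging 5 counts or more. Promoter sequences are from RefSeq (GRCm38.p6), where 38 of 50 members matched.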

Additional observations from a re-analysis of the deposited data

Results flagged for a closer look

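Each of the 35 members was examined in both genotypes, 70 groups of 6 in all, for a highest or lowest library set far from the rest (Dixon's criterion), which chance alone meets in about 1 group in 20. There were 5 such groups, each with a high library. Abcb5 had 93.05 CPM in wild-type replicate 5, and the next wild-type library had 22.36 CPM. Abca4 had 19.97 CPM in Sgo1-/+ replicate 3 (next 8.236 CPM), a library rich in mitochondrial-like rows. Abcg2 had 144.8 CPM in Sgo1-/+ replicate 1 (next 104.8 CPM). Abca1 had 8.137 CPM in wild-type replicate 2 (next 5.298 CPM), and Abca8b had 8.349 CPM in wild-type replicate 1 (next 2.856 CPM).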

How the results depend on the processing

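Results were recomputed under 23 other settings, of which 12 left out 1 library each. With total counts alone the median of all genes moved from -0.01 to 0.31, the drug class median became 0.23 and that of the other members 0.33, and 6 estimates changed sign (Abcg2 0.078, Abcb1a 0.14, Abcc3 0.17, Abcd3 0.13, Abcf1 0.23, Abcc12 0.24), all below the shift of all genes. Under DESeq2, 1 member was called, Abca12 at -0.66 (adjusted p = 0.0378). Within the 4 libraries with the suffix, 5 members passed at an unadjusted p of 0.05 (14.2% of genes), the class medians were -0.60 (lipid) and 0.21 (other), and Abcg5, Abcg8 and Abcc12 were at -0.66, -0.44 and 0.35. Without the 3 libraries rich in mitochondrial-like rows 6 members passed and Abcc12 was at 0.14. A covariate for the mitochondrial-like share, chosen after seeing the data, gave 7 members passing (10.4% of genes) and put Abca3, Abcf1 and Abcc12 at -0.017, 0.029 and 0.21. It also moved Abcb11 from -0.55 to -7.34e-05, Abcc4 from 1.00 to 0.43, Abca4 from -0.84 to -0.37, Abcb5 from -1.37 to -0.54, Abce1 from 0.17 to 0.014, Abcg8 from 0.49 to 0.26, Abcg2 from -0.22 to -0.34, Abcd3 from -0.16 to -0.26 and Abcc3 from -0.13 to -0.28, and it put Abcb1a at -0.36 (edgeR unadjusted p = 0.0105, adjusted p = 0.357). The causes were not tested.

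With 1 library left out, members passing an unadjusted p of 0.05 numbered 2 to 7 and members called 0. The class medians ran from -0.13 to 0.07 (lipid), -0.11 to 0.003 (drug) and -0.06 to 0.11 (other), Abca12 from -0.75 to -0.57 (edgeR adjusted p from 0.127), and Abcc12 from -0.28 to 0.087 (without wild-type replicate 5). Over all 23 settings Abca12 was lowest at -0.80 (libraries with the suffix) and closest to 0 at -0.36 (total counts). Same-numbered libraries of the genotypes had deviations correlated at -0.30 to 0.45, and 1 of 6 pairs matched best with its own number. No pairing by number was evident, which does not exclude one, and the labels state none. With a replicate block 3 members passed an unadjusted p, 1706 genes against 1340, and Abca12 was at -0.67 (edgeR adjusted p = 0.174). Low counts limit the 15 members not tested, and the labels do not tell whether libraries came from separate mice.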
